A study of Mus musculus with 6 samples.

Results

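The 10 genes described here mark the endothelium of the lung capillaries, and they were selected by gene name from the 54532 genes of the deposited count table. *Ednrb*, *Apln*, *Tbx2* and *Fibin* are genes of aerocytes, *Aplnr*, *Plvap* and *Tek* are genes of general capillary cells, and *Sox17*, *Cldn5* and *Pecam1* are shared with other endothelial cells. RNA-Seq was performed on perfused whole lungs of untreated mice at 2 months old, with 3 libraries of WT mice and 3 libraries of *ISM1*-/- mice, which the labels call ISM1-KO. The WT animals were purchased C57BL/6J mice, while the *ISM1*-/- line was made in-house on the C57BL/6J background, so that genotype and origin of the animals cannot be told apart. All 10 genes passed the filter on low counts, among 18689 genes tested. In whole tissue, fewer cells of a type and less RNA per cell cannot be told apart.

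The gas-exchange surface of the lung is supplied by a dense capillary bed in which different endothelial cells intermingle. Aerocytes are large, thin cells that lie against the alveolar epithelium, and they carry the endothelin receptor Ednrb and secrete the peptide apelin. General capillary cells carry the apelin receptor, regulate vascular tone and act as progenitors that renew the capillaries after injury. Transcription factors of the SoxF group and receptors such as Tie2 maintain endothelial identity and vessel stability.

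Library depth ranged from 37606133 to 42345042 counts. The targeted gene *Ism1* was checked first. Its counts were 3098, 3215 and 2975 for WT replicates 1 to 3, and 2784, 2508 and 2953 for the mice labelled *ISM1*-/-. Both genotypes thus kept *Ism1* transcript (log2 fold change −0.19, standard error 0.0709, edgeR adjusted p = 0.217), and the genotype rests on the labels. Without *ISM1*-/- replicate 3 the difference was −0.26 and passed (edgeR adjusted p = 0.0356). WT replicate 1 stood apart with a mean log2 CPM of 6.99 over 10 cardiomyocyte markers, against 4.33 to 5.66 in the other 5 libraries, and of 8.71 over 8 alveolar type 1 markers, against 9.14 to 9.24, and results are therefore also given without it where it matters.

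Further markers of the same cells were examined beside the 10 genes. *Car4*, which encodes the carbonic anhydrase that marks aerocytes, was at 231 FPKM as a mean over the 6 libraries (FPKM are counts divided by library size and gene length). *Gpihbp1*, which encodes the anchor of lipoprotein lipase on capillary cells, was at 123 FPKM and the receptor gene *Kit* at 112 FPKM. *Cdh5*, which encodes VE-cadherin, was at 519 FPKM. All of these defining genes were therefore abundant in the libraries, which cannot show in which cells the reads of the 10 genes arose. Several of the 10 genes are not exclusive to capillaries, since *Tbx2* is also active in lung mesenchyme, *Sox17* in arterial endothelium, and *Pecam1* in platelets and leukocytes.

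On the per-length scale of FPKM, the 10 genes covered a wide range of levels. *Pecam1* had a mean of 353 FPKM over the 6 libraries, *Plvap* of 306 FPKM and *Cldn5* of 286 FPKM, and the ranges of these neighbours overlapped. *Tek* followed at 137 FPKM and *Tbx2* at 114 FPKM, again with overlapping ranges. *Sox17* (53.9 FPKM) and *Aplnr* (52.1 FPKM) changed places between genotypes, with *Sox17* above *Aplnr* in 3 of 6 libraries, all of them *ISM1*-/-. The means of *Sox17* and *Aplnr* were 44.6 and 50.5 FPKM in WT, and 63.3 and 53.7 FPKM in *ISM1*-/-. *Ednrb* was at 35.4 FPKM, *Fibin* at 28.8 FPKM and *Apln*, the lowest, at 23.1 FPKM. Only the steps from *Cldn5* to *Tek*, from *Tbx2* to *Sox17* and from *Aplnr* to *Ednrb* separated neighbours without overlap of the 6 libraries.

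In the comparison of genotypes, *Sox17* was the single gene of the 10 that passed an adjusted p under 0.1 in edgeR, and it was higher in *ISM1*-/- lungs by 1.43-fold. None of the 10 genes was called lower. Over all genes tested, 1.38% were called higher and 3.34% lower by the same rule, 4.72% in all. The median log2 fold change of the 10 genes was 0.12, beside 0.00 over all genes, and 8 of the 10 had a positive value, of which *Ednrb*, *Aplnr*, *Tbx2* and *Pecam1* turned negative when the libraries were scaled by other endothelial genes, as described further on. The 9 genes that did not pass had 95% intervals of the fold change within 0.734 and 1.38, so larger differences than these lay outside the intervals. Other rules gave the following counts. At an adjusted p under 0.05, which 2.43% of all genes passed in edgeR, *Sox17* was again called alone, and with a minimum of 2-fold in addition to an adjusted p under 0.1 (0.567% of all genes) none was. In DESeq2, where 7.46% of the genes with an adjusted p passed, *Sox17* was the one called as well. At an unadjusted p under 0.05, reached by 15.8% of all genes, *Sox17* and *Pecam1* were higher (6.48% of all genes) and *Plvap* lower (9.3%). The same 3 genes had no overlap between the genotypes, which was the case for 21.6% of all genes, 9.33% with *ISM1*-/- higher and 12.3% with *ISM1*-/- lower.

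**Figure D1:**
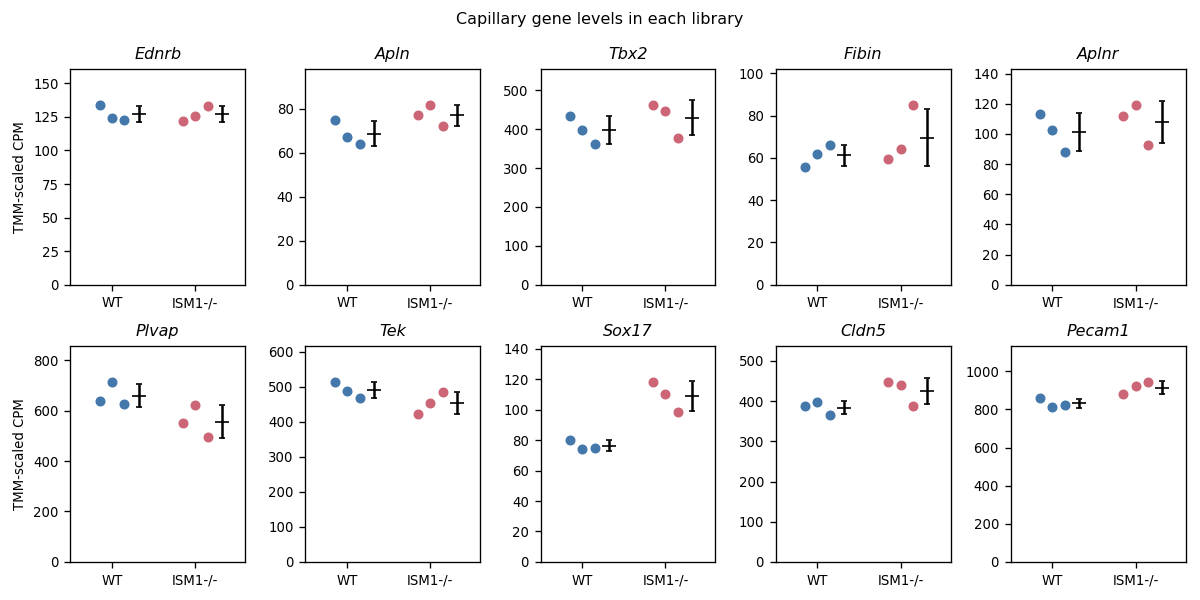
Level of each of the 10 genes in TMM-scaled CPM (y axis from 0) in the 3 WT (blue) and 3 *ISM1*-/- (red) libraries; each point is 1 mouse, in the order of replicates 1 to 3, and black bars give mean ± SD. The 3 *Sox17* values of *ISM1*-/- lie between 98.3 and 118 CPM, above the WT values of 74.0 to 80.4 CPM, while *Ednrb* has the same mean in both genotypes.

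*Sox17* (ENSMUSG00000025902, chromosome 1, 4490931 to 4497354, reverse strand, GRCm38) encodes a SoxF transcription factor of arterial and capillary endothelium. It was at 80.4, 74.0 and 74.8 CPM in WT replicates 1 to 3 and at 118, 111 and 98.3 CPM in *ISM1*-/- replicates 1 to 3, where CPM are counts relative to the scaled size of the library. Every *ISM1*-/- library lay above every WT library. The mean of WT was 76.4 ± 3.49 CPM (SD, n = 3), and that of *ISM1*-/- was 109 ± 10.04 CPM (SD, n = 3). The log2 fold change was 0.51 (standard error 0.0754, 95% interval 0.35 to 0.68, edgeR adjusted p = 0.0153). This ranked 61st by p-value among the 18689 genes.

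The difference in *Sox17* did not rest on 1 library. With each library left out in turn, its log2 fold change lay between 0.45 and 0.58, and its edgeR adjusted p between 0.00481 and 0.0808, under 0.1 in 6 of 6 fits. Without WT replicate 1, the library with the highest cardiomyocyte markers, the log2 fold change was 0.55 (edgeR adjusted p = 0.0245). A noncoding gene on the opposite strand, *Gm37587*, overlaps the *Sox17* locus, but it had 14 to 26 counts per library against a mean of 3679 for *Sox17*.

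The other SoxF genes had higher means in *ISM1*-/- but did not pass. *Sox7* had means of 71.4 CPM in WT and 98.1 CPM in *ISM1*-/- (log2 fold change 0.46, standard error 0.146, edgeR adjusted p = 0.151). *Sox18* had means of 116 and 147 CPM (log2 fold change 0.35, standard error 0.159, edgeR adjusted p = 0.331). In both, the genotypes overlapped. In a list of 8 SoxF and T-box transcription factor genes, *Sox17* was the only one that passed, and the median log2 fold change was 0.20.

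Because *Sox17* also marks arteries, 9 further arterial genes were examined, and none of them passed. *Gja5*, which encodes the arterial gap junction protein connexin 40, had means of 50.7 and 50.2 CPM (log2 fold change −0.02, edgeR adjusted p = 0.955). *Dll4* and *Efnb2*, which encode the arterial Notch ligand and ephrin-B2, had log2 fold changes of −0.02 and 0.03. *Notch4* had the same direction as *Sox17* without overlap between genotypes, at 0.21 (edgeR adjusted p = 0.129), and *Gja4* had 0.45 with overlap (edgeR adjusted p = 0.251). *Dkk2*, which encodes a secreted Wnt regulator, was at 0.41 with overlap (edgeR adjusted p = 0.497). It was near the floor, with 37 to 75 counts per library and a mean of 0.356 FPKM. The median of the 9 genes was 0.03, while their mean log2 CPM did not overlap between genotypes, with 5.59, 5.57 and 5.62 for WT and 5.73, 5.70 and 5.68 for *ISM1*-/-. Each of the 9 genes has the same weight in this mean, *Dkk2* included, and the mean without *Dkk2* was not examined. No conclusion on arterial genes is therefore drawn from it. The summed level of the 9 genes did overlap, with 849, 886 and 853 CPM in WT and 942, 930 and 879 CPM in *ISM1*-/-.

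The sequence upstream of the RefSeq start was examined for 5 of the 10 genes with a window on GRCm38.p6, namely *Ednrb*, *Apln*, *Tek*, *Fibin* and *Cldn5*. The RefSeq start of *Ednrb* and of *Fibin* lies inside the gene as the count table gives it, so that the *Ednrb* window is wholly, and the *Fibin* window in large part, within that gene. SoxF proteins bind a short core, ACAAT, and ETS factors such as Erg bind GGAAG. The 250 bases before the start are shown for *Tek*, the window with the SoxF core, for *Cldn5*, which holds neither core, and for *Apln*, which holds the ETS core most often of the 5. Capitals mark ACAAT or GGAAG on either strand. The windows are chr4:94739039-94739288 on the forward strand for *Tek*, chr16:18776597-18776846 on the forward strand for *Cldn5* and chrX:48034854-48035103 on the reverse strand for *Apln*, each written from 5′ to 3′ along the gene.
Tek: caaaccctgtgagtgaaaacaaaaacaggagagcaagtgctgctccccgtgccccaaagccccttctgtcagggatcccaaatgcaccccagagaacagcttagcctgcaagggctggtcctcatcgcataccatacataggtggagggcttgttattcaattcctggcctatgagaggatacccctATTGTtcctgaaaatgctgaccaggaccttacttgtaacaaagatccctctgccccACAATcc
Cldn5: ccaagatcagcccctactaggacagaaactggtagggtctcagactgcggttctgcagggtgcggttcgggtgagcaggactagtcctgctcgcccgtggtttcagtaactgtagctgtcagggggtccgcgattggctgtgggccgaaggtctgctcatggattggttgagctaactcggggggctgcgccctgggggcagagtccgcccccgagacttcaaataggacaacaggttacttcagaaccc
Apln: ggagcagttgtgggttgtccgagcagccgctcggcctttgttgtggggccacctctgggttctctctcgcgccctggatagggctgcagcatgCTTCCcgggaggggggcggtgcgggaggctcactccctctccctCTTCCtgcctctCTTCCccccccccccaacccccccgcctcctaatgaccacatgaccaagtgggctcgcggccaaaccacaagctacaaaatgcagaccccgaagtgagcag

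ACAAT was found in 1 of the 5 windows, that of *Tek*, which holds it 2 times, beside 27.7% of 32851 windows of the same length. GGAAG was found in 3 of the 5, *Apln* (3 times), *Ednrb* and *Fibin*, beside 64.1% of all windows. No window holds both cores, so the motifs did not overlap. None of the 5 windows holds the TATA box TATAAA, which 12.4% of all windows hold. The GC content was 51.2% in *Tek*, 59.6% in *Cldn5* and 65.2% in *Apln*, beside a median of 52.4%. These matches describe letters within the windows and not binding.

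*Plvap* (ENSMUSG00000034845, chromosome 8, 71497765 to 71511752, reverse strand) encodes the protein of the diaphragms that span endothelial caveolae and fenestrae. Its values were 638, 713 and 628 CPM in WT and 549, 624 and 494 CPM in *ISM1*-/-. All 3 *ISM1*-/- values were below the lowest WT value, although *ISM1*-/- replicate 2 and WT replicate 3 differed by less than the SD of either genotype. The means were 660 ± 46.8 CPM (SD, n = 3) and 556 ± 65.0 CPM (SD, n = 3), or 84.2% of WT. The log2 fold change was −0.25 (standard error 0.0886, 95% interval −0.45 to −0.05), and it did not pass the test over all genes (unadjusted p = 0.0191, edgeR adjusted p = 0.197). The call depended on the method, since *Plvap* passed without a filter on low counts (edgeR adjusted p = 0.0333) but not in DESeq2 (adjusted p = 0.101). *Plvap* overlaps *Gtpbp3* on the opposite strand, which had 789 to 965 counts per library beside a mean of 24058.5 for *Plvap*.

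*Tek* (ENSMUSG00000006386, chromosome 4, 94739289 to 94874976, forward strand) encodes Tie2, the receptor of the angiopoietins. It was at 514, 489 and 468 CPM in WT and at 421, 454 and 484 CPM in *ISM1*-/-. *ISM1*-/- replicate 3 lay inside the WT range and the other *ISM1*-/- libraries below it. The means were 490 ± 22.7 CPM (SD, n = 3) and 453 ± 31.5 CPM (SD, n = 3), and the log2 fold change was −0.11 (standard error 0.0675, edgeR adjusted p = 0.467), or −0.06 without *ISM1*-/- replicate 1. The ligand genes *Angpt1* and *Angpt2* had log2 fold changes of 0.11 and 0.27, and the related receptor gene *Tie1* and the Tie2 phosphatase gene *Ptprb* of 0.09 and 0.02. None of the 6 angiopoietin and Tie genes passed, *Angpt4* included.

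*Aplnr* (ENSMUSG00000044338, chromosome 2, 85136225 to 85139923, forward strand) encodes the apelin receptor of general capillary cells, and *Apln* (ENSMUSG00000037010, chromosome X, 48025146 to 48034853, reverse strand) its peptide ligand from aerocytes. *Aplnr* was at 113, 102 and 87.7 CPM in WT and at 112, 119 and 92.3 CPM in *ISM1*-/-, so the genotypes overlapped. Its log2 fold change was 0.09 (standard error 0.109, 95% interval −0.15 to 0.34, edgeR adjusted p = 0.749). Single libraries moved this value, to 0.00 without WT replicate 3, 0.02 without *ISM1*-/- replicate 2, 0.18 without WT replicate 1 and 0.20 without *ISM1*-/- replicate 3. *Apln* was at 74.9, 67.0 and 63.8 CPM in WT and at 76.9, 81.7 and 72.1 CPM in *ISM1*-/-. Its genotypes overlapped only through WT replicate 1 and *ISM1*-/- replicate 3. The log2 fold change of *Apln* was 0.17 (standard error 0.0762, edgeR adjusted p = 0.329). It was 0.24 without WT replicate 1 (edgeR adjusted p = 0.175) and 0.21 without *ISM1*-/- replicate 3 (edgeR adjusted p = 0.168). Without WT replicate 3 or without *ISM1*-/- replicate 2 it was 0.12.

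Ligand and receptor varied together over the 6 libraries, with a Pearson r of 0.85 between log2 CPM of *Apln* and *Aplnr*, given as a description over libraries that include both genotypes. This was not particular to the pair, since r with *Tbx2* was 0.86 for *Apln* and 0.95 for *Aplnr*. The ratio of *Apln* to *Aplnr* in FPKM was 0.434 ± 0.0255 (SD, n = 3) for WT and 0.457 ± 0.0346 (SD, n = 3) for *ISM1*-/-, with overlap. Of the other apelin genes, *Apela*, which encodes the second ligand of the receptor, had no counts in any library. The protease gene *Furin* had a log2 fold change of −0.10 and did not pass.

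*Ednrb* (ENSMUSG00000022122, chromosome 14, 103814625 to 103844402, reverse strand) encodes the endothelin receptor type B, by which aerocytes are recognised. It was at 134, 124 and 123 CPM in WT and at 122, 126 and 133 CPM in *ISM1*-/-. The genotypes had almost the same mean, 127 ± 6.02 CPM (SD, n = 3) and 127 ± 5.71 CPM (SD, n = 3). Its log2 fold change was 0.00 with a 95% interval from −0.13 to 0.14 (edgeR adjusted p = 0.996). Of the 5 endothelin genes that passed the filter, none was called. The ligand gene *Edn1* had means of 25.5 and 30.2 CPM (log2 fold change 0.25, edgeR adjusted p = 0.255), and the converting enzyme gene *Ece1* and the receptor gene *Ednra* had log2 fold changes of −0.07 and −0.11. *Edn3* was at −0.01, and *Edn2* and *Ece2* were below the filter.

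*Tbx2* (ENSMUSG00000000093, chromosome 11, 85832551 to 85841948, forward strand) encodes a T-box transcription factor. It was at 433, 397 and 363 CPM in WT and at 462, 447 and 378 CPM in *ISM1*-/-, with overlap, and its log2 fold change was 0.11 (standard error 0.0893, edgeR adjusted p = 0.612). This value was 0.05 without WT replicate 3, 0.06 without *ISM1*-/- replicate 1, 0.18 without WT replicate 1 and 0.20 without *ISM1*-/- replicate 3. *Fibin* (ENSMUSG00000074971, chromosome 2, 110360917 to 110363183, reverse strand), which encodes a secreted protein named after fin bud initiation in zebrafish, was at 55.9, 61.6 and 65.9 CPM in WT and at 59.6, 64.1 and 85.1 CPM in *ISM1*-/-. Its mean difference came from *ISM1*-/- replicate 3, since the log2 fold change was 0.19 with that library and 0.02 without it. *Fibin* also had the widest spread of the 10 genes within a genotype, a coefficient of variation of 19.5% in *ISM1*-/-, while *Pecam1* had 2.93% in WT and 3.62% in *ISM1*-/-, the narrowest of the 10 in each genotype.

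*Cldn5* (ENSMUSG00000041378, chromosome 16, 18776847 to 18778262, forward strand) encodes the tight junction protein claudin-5 of endothelial cells. It was at 389, 397 and 366 CPM in WT and at 448, 441 and 388 CPM in *ISM1*-/-. *ISM1*-/- replicate 3 lay inside the WT range and the other *ISM1*-/- libraries above it. The log2 fold change was 0.15 (standard error 0.0689, edgeR adjusted p = 0.334), and without *ISM1*-/- replicate 3 it was 0.21 and passed (edgeR adjusted p = 0.0638). None of the 15 junction genes passed in the comparison of all libraries. *Tjp1* and *F11r*, which encode ZO-1 and JAM-A, had log2 fold changes of 0.12 and 0.14, and the epithelial claudin gene *Cldn3* of −0.32.

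*Pecam1* (ENSMUSG00000020717, chromosome 11, 106654217 to 106750628, reverse strand) encodes CD31, an adhesion protein at endothelial cell contacts. It was at 859, 814 and 822 CPM in WT and at 878, 921 and 944 CPM in *ISM1*-/-, without overlap. The log2 fold change was 0.14 (standard error 0.0576, 95% interval 0.01 to 0.27, unadjusted p = 0.0397), which did not pass over all genes (edgeR adjusted p = 0.281). Markers of other cells that carry CD31 were also higher in some libraries. The summed level of 7 leukocyte markers was 344 to 355 CPM in WT and 372 to 478 CPM in *ISM1*-/-. That of 5 tested platelet markers was 17.5 to 19.4 CPM and 19.3 to 23.3 CPM, with the platelet gene *Gp1bb* at 0 counts in each library. Of these 5 markers, 4 had a positive log2 fold change, while *Pf4* was at −0.19, lower without overlap. The part of these cells in the value of *Pecam1* was not tested.

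**Figure D2:**
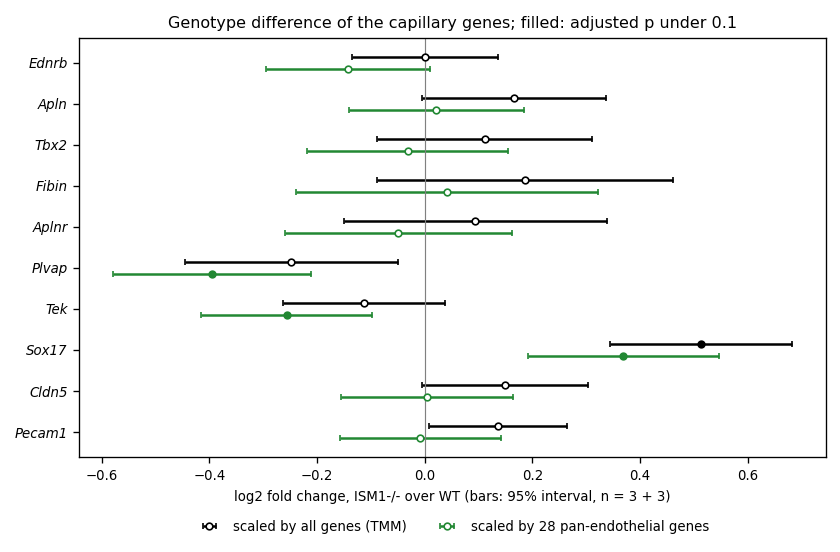
Log2 fold change of *ISM1*-/- over WT (x axis) for the 10 genes with 95% intervals (3 libraries per genotype), scaled by all genes (black) or by 28 pan-endothelial genes (green); filled points have an adjusted p under 0.1. *Sox17* is filled on either scale, at 0.51 and 0.37, whereas *Plvap* and *Tek* are filled only on the endothelial scale, at −0.39 and −0.26.

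To compare the capillary genes with other endothelial genes, 28 pan-endothelial genes other than these 10 were examined. Whole-lung libraries cannot show in which cells the reads of these genes arose either. The 28 genes averaged 7.89, 7.87 and 7.80 log2 CPM for WT replicates 1 to 3, against 7.97, 8.04 and 7.98 log2 CPM for the *ISM1*-/- replicates, without overlap. In the full pan-endothelial list of 30 genes, which also holds *Cldn5* and *Pecam1*, 28 had a positive log2 fold change, with a median of 0.14 beside 0.00 over all genes, and 1 passed. That gene was *Tmem100*, which encodes a membrane protein downstream of BMP9 and ALK1 in endothelium, with 402, 393 and 411 CPM in WT and 463, 507 and 550 CPM in *ISM1*-/- (log2 fold change 0.33, standard error 0.0690, edgeR adjusted p = 0.0395). The most abundant of the list, *Cav1* at 1294 FPKM and *Epas1* at 615 FPKM, had log2 fold changes of 0.15 and 0.02.

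When the libraries were scaled so that these 28 genes had the same mean in each, the median over all genes moved by −0.14 on the log2 scale. On this endothelial scale, *Plvap* was at 654, 742 and 684 CPM in WT and at 532, 575 and 476 CPM in *ISM1*-/-, and *Tek* at 527, 508 and 510 CPM in WT and at 408, 419 and 467 CPM in *ISM1*-/-. Neither gene overlapped between the genotypes, and with *Ednrb* 3 of the 10 genes were lower without overlap on this scale, beside 32.3% of all genes, while *Sox17* was higher without overlap, beside 2.33%. Relative to these pan-endothelial genes, *Plvap* was lower by a log2 fold change of −0.39 (standard error 0.0844, edgeR adjusted p = 0.0149) and *Tek* by −0.26 (standard error 0.0730, edgeR adjusted p = 0.0470). On this scale 17.1% of all genes were called, 16.1% lower and 1.02% higher, beside 2 lower (*Plvap* and *Tek*) and 1 higher of the 10 genes. The higher gene was again *Sox17*, with 82.5, 77.0 and 81.5 CPM for WT, 115, 102 and 94.7 CPM for *ISM1*-/-, and a log2 fold change of 0.37 (edgeR adjusted p = 0.0169). Without WT replicate 1, *Plvap* was at −0.43 and *Tek* at −0.24 on this scale (edgeR adjusted p = 0.0138 and 0.0833). *Cldn5* and *Pecam1* were at 0.00 and −0.01 and *Apln* at 0.02. *Ednrb* was at −0.14 and did not pass (edgeR adjusted p = 0.201), although without *ISM1*-/- replicate 3 it was at −0.19 and passed (edgeR adjusted p = 0.0841).

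Ratios within a library need no scaling between libraries. The ratio of *Plvap* to *Pecam1* in FPKM was 0.923, 1.09 and 0.950 in WT and 0.777, 0.843 and 0.651 in *ISM1*-/-. That of *Tek* to *Pecam1* was 0.430, 0.432 and 0.410 in WT and 0.345, 0.355 and 0.369 in *ISM1*-/-. In both ratios each *ISM1*-/- library lay below each WT library. The ratio of *Sox17* to *Pecam1* was 0.135, 0.131 and 0.131 in WT and 0.194, 0.173 and 0.150 in *ISM1*-/-, without overlap in the other direction. The ratio of *Cldn5* to *Pecam1* overlapped, with means of 0.806 in WT and 0.815 in *ISM1*-/-. The ratios of *Ednrb* to *Plvap* and of *Apln* to *Ednrb* also overlapped, while those of *Sox17* to *Tek* and *Plvap* to *Cldn5* did not. Scaled by all genes, *Pecam1* was itself higher in *ISM1*-/-, which lowers ratios over it. No share over all genes was computed for ratios, but on the endothelial scale 32.3% of all genes were lower without overlap. These ratios were chosen with the counts known and are given as a description.

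Further genes of the same capillary cells put the 10 genes in context. Of 15 aerocyte genes, 1 was called higher and none lower, with a median log2 fold change of 0.05. The called gene was *Prx*, which encodes periaxin, at 250, 264 and 260 CPM in WT and at 309, 331 and 338 CPM in *ISM1*-/- (log2 fold change 0.34, standard error 0.0581, edgeR adjusted p = 0.0232). *Car4*, as the defining aerocyte gene, had means of 154 and 159 CPM (log2 fold change 0.04). *Tbx3*, the close relative of *Tbx2*, was at 0.30 without overlap and did not pass (edgeR adjusted p = 0.109). The most abundant genes of the list, *Pmp22* at 436 FPKM and *Igfbp7* at 431 FPKM, were at 0.12 and 0.04. How much of these whole-lung levels arose in aerocytes cannot be told.

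Of 12 general capillary genes, 2 were called higher and none lower, with a median of 0.06. *Sema3c*, which encodes a secreted semaphorin, was at 457, 398 and 476 CPM in WT and at 532, 587 and 768 CPM in *ISM1*-/- (log2 fold change 0.50, standard error 0.124, edgeR adjusted p = 0.0706). *Cxcl12*, which encodes a chemokine, was at 297, 263 and 309 CPM in WT and at 380, 355 and 329 CPM in *ISM1*-/- (log2 fold change 0.29, standard error 0.0770, edgeR adjusted p = 0.0872). Neither is exclusive to capillaries. *Gpihbp1* and *Kit* had log2 fold changes of −0.02 and 0.10, and *Lpl*, whose product Gpihbp1 binds, of −0.32 with overlap.

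**Figure D3:**
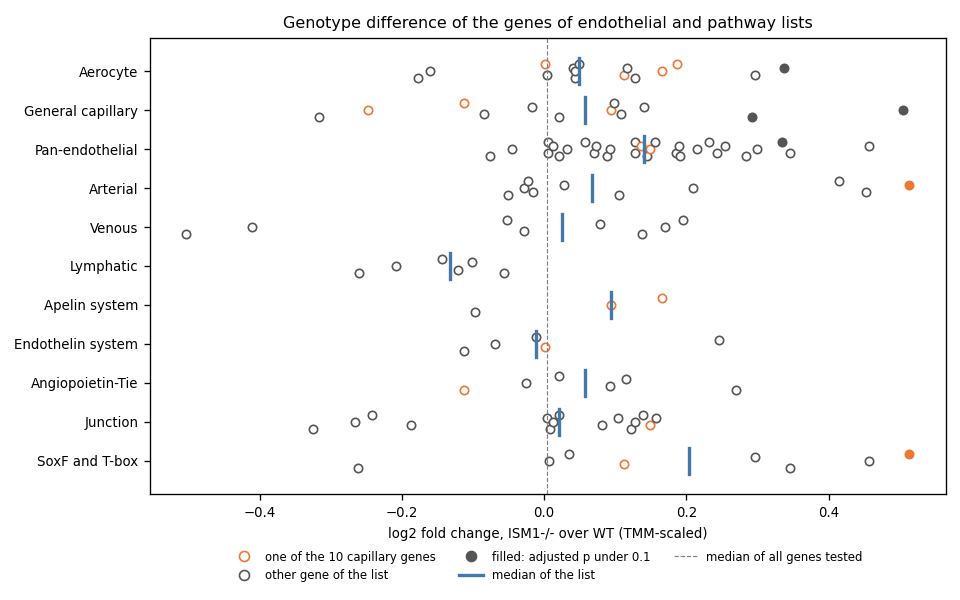
Log2 fold change of *ISM1*-/- over WT (x axis, scaled by all genes) for tested genes of 11 endothelial and pathway lists (rows); orange points are among the 10 capillary genes, filled points have an adjusted p under 0.1, blue bars are list medians and the dashed line is the median of all genes. The pan-endothelial median lies at 0.14 and the lymphatic median at −0.13.

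Endothelial cells of larger vessels and lymphatics were described by the same counts. None of 8 venous genes passed, with a median of 0.02, and *Vwf*, the most abundant at 275 FPKM, was at 0.14. None of 6 tested lymphatic genes passed, and each had a negative log2 fold change, with a median of −0.13 and *Lyve1* at −0.14. Over the 81 tested genes of the 6 endothelial lists, 5 were called higher and none lower, beside 1.38% and 3.34% of all genes. The count of higher calls depended on single libraries: it was 1 without WT replicate 2, 2 without WT replicate 3, 2 without *ISM1*-/- replicate 2 and 15 without *ISM1*-/- replicate 3. The higher calls over all genes moved in the same direction, from 258 to 35, 88, 80 and 570 in these fits.

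Markers of the other cells of a lung homogenate were examined beside these values. None of 8 alveolar type 2 markers passed, and 1 of 8 alveolar type 1 markers (*Rtkn2*, log2 fold change 0.45) was higher. Of 8 pericyte markers 1 was lower (*Abcc9*, −0.43), of 6 smooth muscle markers 1 (*Cnn1*, −0.75), and of 7 fibroblast markers 2 (*Dcn*, −0.54, and *Col1a1*, −0.33). All 7 adipocyte markers were lower, with a summed level of 173 to 213 CPM in WT and 37.3 to 96.6 CPM in *ISM1*-/-. Of 10 cardiomyocyte markers, 1 was lower (*Myl7*, −1.11), with sums of 603 to 1802 CPM in WT and 325 to 646 CPM in *ISM1*-/-. Of 7 leukocyte markers 3 were higher, *Ptprc*, *Cd79a* and *S100a8*. None of 5 red blood cell, 6 proliferation, 4 mesothelial and 5 tested platelet markers passed. The part of these cells in the values of the 10 genes was not tested. Within *ISM1*-/-, *Sox17* was highest in replicate 1 and lowest in replicate 3, as was the sum of the leukocyte markers (478, 427 and 372 CPM), while the sums of the adipocyte and cardiomyocyte markers were lowest in replicate 1 and highest in replicate 3. That order was not particular to *Sox17*, since *Tbx2* and *Cldn5* had it too, and a relation to these markers was not tested.

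**Figure D4:**
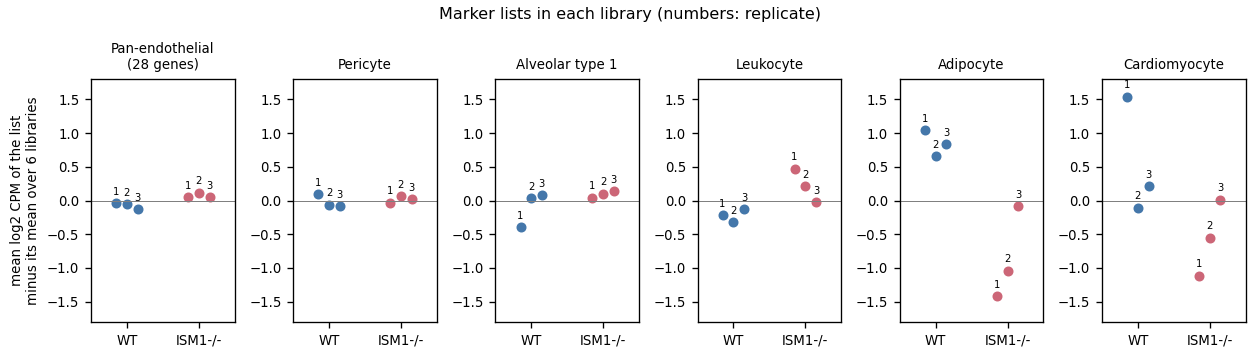
Mean log2 CPM of 6 marker lists in each library, minus the mean of the list over the 6 libraries (y axis), for WT (blue) and *ISM1*-/- (red); numbers give the replicate. The pan-endothelial points span a narrow range, whereas WT replicate 1 stands highest for cardiomyocyte markers and the 3 *ISM1*-/- libraries lowest for adipocyte markers.

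The 10 genes did not vary as 1 block among libraries. WT replicate 1 had the highest WT value in 7 of the 10 genes and WT replicate 3 the lowest in 7, and *ISM1*-/- replicate 3 had the lowest *ISM1*-/- value in 6. *Aplnr* and *Tbx2* were the most alike pair, with a Pearson r of 0.95 over the 6 libraries, and *Plvap* and *Pecam1* the least alike, with −0.77. These correlations mix both genotypes, rest on 6 points and share the scaling of the libraries. The 5 genes outside the 10 whose log2 CPM was most like the mean of their standardised values were *Txnip*, *Reck*, *Sh3rf1*, *Map4k2* and *Tnfaip3*, with r from 0.98 to 0.99 over 6 libraries among 12484 candidates. None of these 5 genes passed an adjusted p under 0.1 between the genotypes.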

How the data were processed

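RNA of perfused whole lungs from 3 WT and 3 *ISM1*-/- mice was enriched for poly-A transcripts and made into strand-specific libraries for paired-end sequencing. The authors filtered the reads, mapped them to GRCm38 with STAR and deposited raw counts per gene, and the same values as FPKM, in which counts are divided by library total and gene length. The counting program, annotation release and strand setting are not given in the sources used here, so overlapping genes are uncertain.

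The quasi-likelihood test of edgeR 4.0.16 (R 4.3.3) compared genotypes on TMM-scaled counts of genes that reached 0.5 CPM in 1 or more libraries, with Benjamini-Hochberg adjustment over all 18689 such genes. A gene was called at an adjusted p under 0.1, with no minimum fold change. Values are TMM-scaled CPM, mean ± SD, n = 3. FPKM served for levels between genes. Each pair of libraries differed by more than sampling noise (smallest chi-square over its degrees of freedom 5.46). The p-values set the genotype difference against the variance between these animals, estimated with information from all genes. They do not separate genotype from the origin of the animals.

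The 10 genes and 23 marker and pathway lists were chosen with earlier results of these data known. Named genes are the 10 genes, called genes of each list (at most 4 per direction), the most abundant genes of endothelial lists (2 of each, in part omitted), ligands and receptors of the 3 signalling lists, genes overlapping the 10 and the 5 genes most like them over the libraries (mean of at least 5 CPM). Others were named after their values were seen. A further gene is not reported here.

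Alternatives were DESeq2 1.42.0, RLE size factors, 3 other filters, scaling by 28 pan-endothelial genes, limma 3.58.1 on log2(FPKM + 0.1), the replicate block, stricter thresholds and omission of each library. The scripts were tested on simulated data. No set test was made.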

Additional observations from a re-analysis of the deposited data

How the results depend on the processing

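*Sox17* was called higher in each alternative fit and at an adjusted p under 0.05, but not with a 2-fold minimum. Of the 10 genes, 1 was called higher under each alternative, except 2 without ISM1-KO replicate 3 and 0 with a 2-fold minimum. No gene of the 10 was called lower in the fit of all 6 libraries, but 2 were with pan-endothelial scaling, 1 without a filter on low counts and 1 with the replicate block. Pan-endothelial scaling combined with omission of WT replicate 1 or ISM1-KO replicate 3, an alternative added after seeing the data, gave 2 and 3 lower calls and 1 higher call each. The share over all genes was not computed for these added fits, so their counts cannot be read as particular to the 10 genes. With all 6 libraries, this scaling called 16.1% of all genes lower and 1.02% higher. With 1 library left out, the 10 genes gave 1 to 2 higher calls. For the 6 endothelial lists the 5 higher calls became 13 in DESeq2, 15 without a filter, 13 with the replicate block, 3 in limma on FPKM, 2 with pan-endothelial scaling and 3 at an adjusted p under 0.05, and between 1 and 15 with 1 library left out. Their lower calls became 12, 2 and 1 with pan-endothelial scaling, no filter and the replicate block, and 0 to 1 with 1 library left out. Over all genes, the 258 higher calls became 466 in DESeq2, 566 without a filter and 399 with the replicate block. They became 185 in limma and 190 with pan-endothelial scaling. The 624 lower calls over all genes became 3008 with pan-endothelial scaling, 1066 without a filter and 706 with the replicate block. The cause of these shifts was not tested, apart from the common shift of −0.14 that pan-endothelial scaling adds to each gene.

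The log2 fold change of *Ism1* was −0.33 and passed with pan-endothelial scaling, and lay between −0.26 (without ISM1-KO replicate 3, where it passed at an edgeR adjusted p of 0.0356) and −0.15 with 1 library left out. *Ednrb*, which had no difference to keep, changed sign with pan-endothelial scaling (−0.143), with a mean above 2 CPM (−7.3e-05), without a filter (−0.00557) and in limma (−0.00676), and lay between −0.0334 and 0.0424 with 1 library left out. Pan-endothelial scaling also turned *Aplnr* to −0.0492, *Tbx2* to −0.0315 and *Pecam1* to −0.00812. Without WT replicate 1 on that scale, *Ednrb* was at −0.12, *Fibin* at −0.0365, *Cldn5* at −0.00409 and *Pecam1* at −0.00227. Without ISM1-KO replicate 3 on that scale, *Ednrb* was at −0.19 and passed, *Fibin* at −0.14 and *Pecam1* at −0.0413.

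Libraries with the same replicate number came from different mice, and their deviations from the genotype means correlated at −0.035, 0.037 and 0.066, and not every library correlated best with its own number. With the replicate block *Plvap* passed (edgeR adjusted p = 0.0539) and the calls over all genes went from 882 to 1105; they were 3198 with pan-endothelial scaling, 1632 without a filter, and between 150 (without WT replicate 2) and 1470 (without ISM1-KO replicate 3) with 1 library left out. With 3 libraries per genotype, differences of the 9 uncalled genes within their intervals could not be shown.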
